A study of Mus musculus with 16 samples.

Results

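Mouse embryo fibroblasts (MEFs) without Arkadia that had been given Arkadia with a mutated SUMO-interacting motif by retrovirus (sim) were compared with Arkadia-null MEFs that had received no virus (null). The members were taken by their labels, with no use of measured values: 5 of the 16 libraries of the series, 3 of sim at 0, 1 and 4 h of TGFβ and 2 of null at 0 and 1 h. All 5 carry the genotype Ark-/- and belong to set B, the HS_B libraries. The genotype labels read rvCAG-Arksim for sim and Ark_null for null. CAG is the usual name of a strong promoter that is active in most cell types. TGFβ was given at 2.5 ng/ml, and the 0 h libraries had none. The sim library at 4 h had no null partner in set B. The series as used here holds no library of cells with an empty retrovirus, so the effect of the mutant protein and that of infection, selection or a drift between cultures cannot be told apart. The labels do not state whether the infected cells were a pool or a clone.

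The study addressed the part of Arkadia in the transcriptional response to TGFβ. Its other libraries are null MEFs given wild-type Arkadia by the same type of retrovirus (rvWT, labelled rvCAG-ArkWT, 3 libraries of set B at 0, 1 and 4 h) and, as set A, wild-type (WT, Ark+/+) and null MEFs at 0, 1, 4 and 16 h. Each line had 1 library per time within a set, and the times served as the repeated measurements of a line. The submitters call the samples independent without naming separate cultures, so a p-value here reflects only how far these libraries scatter, and that scatter may be technical.

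Arkadia, the product of Rnf111, is a RING-type ubiquitin ligase that marks the SMAD repressors Ski and SnoN and the inhibitory Smad7 for degradation and so raises the output of TGFβ receptors. A SUMO-interacting motif is a short hydrophobic stretch through which a protein binds SUMO, a small ubiquitin-like modifier, and ligases that read SUMO chains in this way are called SUMO-targeted ubiquitin ligases. In fibroblasts TGFβ is known for inducing matrix proteins, protease inhibitors and regulators of the cell skeleton through SMAD transcription factors.

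Rnf111 was at 62.1, 56.0 and 61.1 FPKM (fragments per kilobase of transcript, scaled to the mapped fragments of a library, as deposited) in sim at 0, 1 and 4 h. It was at 0.526 and 0.435 FPKM in null at 0 and 1 h, 110.0, 103 and 126 FPKM in rvWT and 14.6 to 15.1 FPKM in WT at 0 to 4 h. The sim libraries stood above WT and below rvWT, and the difference between sim and null was 5.31 ± 0.06 SE, adjusted p = 1.49e-05 on the log2(FPKM + 1) scale, on which all differences are given. This level does not separate the transgene from the endogenous gene. Fibroblast markers were present in every sim and null library: the 10 measured of 12 listed markers summed to 7046 to 7477 FPKM in sim and 6294 to 6489 FPKM in null. Summed markers of blood cells (4 of 10 measured) were at 9.94 to 10.4 FPKM in sim and 13.6 to 17.7 FPKM in null, with the macrophage receptor Csf1r under 1 FPKM in all 5 libraries. Those of endothelium (4 of 8) were at 12.2 to 14.7 and 16.0 to 16.4 FPKM, and those of epithelia (4 of 11) at 5.94 to 29.6 and 8.21 to 12.1 FPKM. The adipocyte markers (2 of 6) were at 24.1 to 41.0 FPKM in sim and 144 to 151 FPKM in null, with Lpl, lipoprotein lipase, as the gene that passed (-1.93). Neural markers (4 of 6) were at 24.5 to 34.8 and 19.7 to 21.6 FPKM, muscle markers (3 of 6) at 14.4 to 27.5 and 20.3 to 20.4 FPKM, and cartilage and bone markers (2 of 7) at 15.9 to 34.6 and 19.4 to 19.9 FPKM. The part of these cell types in the results was not tested. The FPKM values of the 5 libraries summed to 435437 to 463640. The read depth is unknown, because no counts were part of the data used here.

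Sim and null differed widely. Of the 10958 genes that averaged 1 FPKM or more in set B, 3807 (34.7%) passed limma's test at a Benjamini-Hochberg adjusted p below 0.05, 1528 of them higher in sim (13.9%) and 2279 lower (20.8%). The fit held line and time as terms. The 3 rvWT libraries were kept in it for the estimate of spread, and they also entered the time terms and so the size of the differences. With the sim and null libraries of set B alone 2606 genes passed, 978 higher and 1628 lower. The median difference over all genes was -0.02. Of the genes that passed, 555 (5.06% of those tested) differed by at least 1, 177 higher (1.62%) and 378 lower (3.45%). The split by direction depended on scaling: 1743 were higher and 2049 lower with median-ratio scaling, and 2143 higher and 1952 lower with quantile normalization. The count fell to 1581 without the null 0 h library, 1730 without the null 1 h library and 2304 without the sim 0 h library. Against the null libraries of set A instead, where set and line cannot be told apart, 3252 of the 3778 genes that passed and could be tested kept their direction, and 2298 of them passed again.

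**Figure D1:**
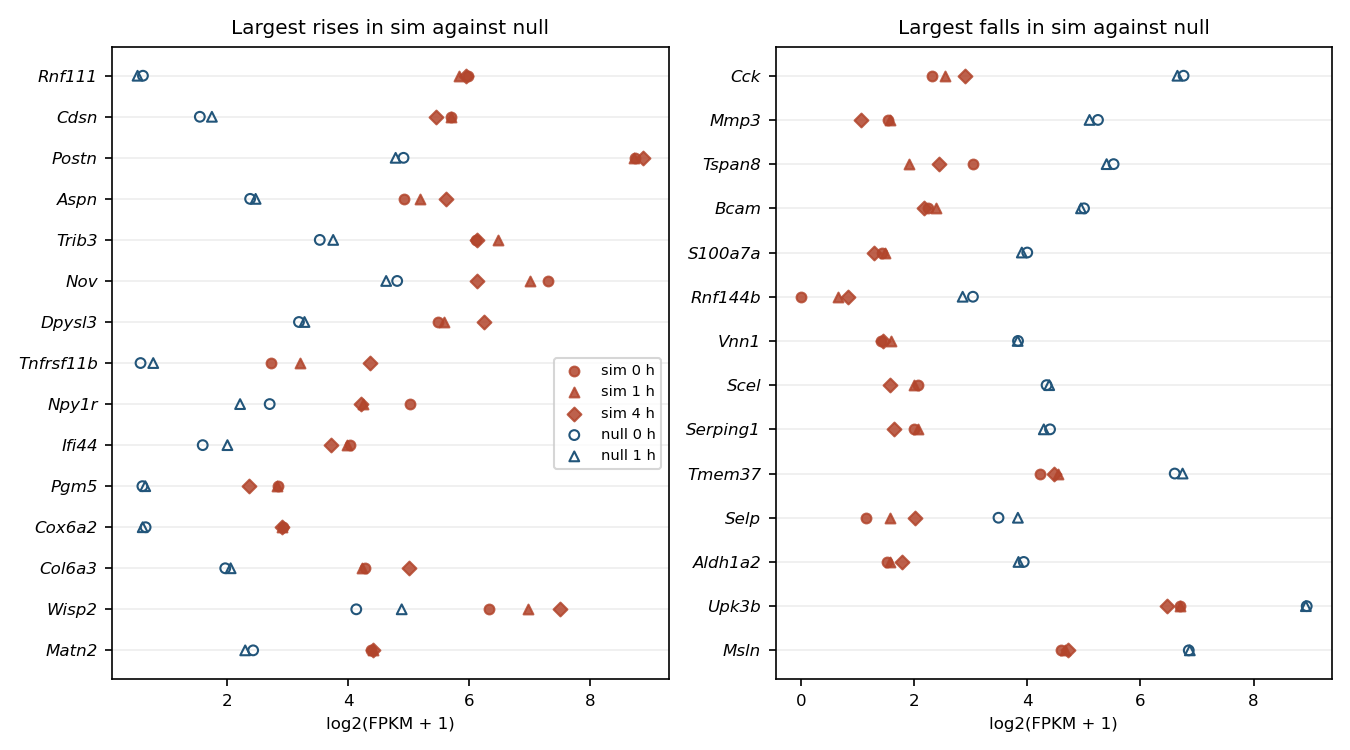
Level of 15 coding genes with the largest rise (left) and 14 with the largest fall (right) in sim against null, as log2(FPKM + 1) on the horizontal axis, 1 symbol per library (filled for sim, open for null). In all 29 genes the 3 sim libraries lie to 1 side of the 2 null libraries. The choice of genes by their difference in these same libraries makes this likely. Rnf111 differs by 5.31 and Cck by -4.30.

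Among the largest rises beside Rnf111, Cdsn, which encodes corneodesmosin, an adhesive protein of the outer epidermis, was at 51.4, 51.1 and 42.9 FPKM in sim and at 1.93 and 2.36 FPKM in null (4.05 ± 0.07 SE, adjusted p = 3.07e-05). Postn, the matrix protein periostin, was at 429.9, 421 and 471 FPKM in sim and 29.2 and 26.6 FPKM in null (3.88 ± 0.05 SE, adjusted p = 1.49e-05). In both genes every sim library was over 10 times as high as every null library, and the untreated sim library was already at the level of the treated ones. Aspn, the small proteoglycan asporin, was at 29.4, 35.6 and 48.2 against 4.21 and 4.55 FPKM (2.77 ± 0.22 SE, adjusted p = 8.73e-04). Tnfrsf11b, which encodes osteoprotegerin, the decoy receptor for RANKL, was at 5.60, 8.21 and 19.6 FPKM in sim and 0.485 and 0.718 FPKM in null (2.29 ± 0.10 SE, adjusted p = 2.03e-04). Here the sim libraries spread widely with time and the lowest of them still lay above both null libraries. The other named rises were Trib3 (2.67), the CCN family members Nov (2.46) and Wisp2 (2.21), the cytoskeletal regulator Dpysl3 (2.31), the neuropeptide Y receptor Npy1r (2.27), the interferon-induced Ifi44 (2.26), Pgm5 (2.24), the muscle-type cytochrome oxidase subunit Cox6a2 (2.23), the collagen VI chain Col6a3 (2.23) and matrilin 2, Matn2 (2.05).

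Among the largest falls, Cck, the peptide hormone cholecystokinin, was at 3.99, 4.87 and 6.42 FPKM in sim and 108 and 99.7 FPKM in null (-4.30 ± 0.16 SE, adjusted p = 1.38e-04). Mmp3, the matrix protease stromelysin 1, was at 1.90, 1.98 and 1.09 against 37.0 and 33.3 FPKM (-3.63 ± 0.08 SE, adjusted p = 7.30e-05). For both, the highest sim library was more than 10 times below the lowest null library. The tetraspanin Tspan8 was at 7.23, 2.78 and 4.43 against 45.1 and 41.3 FPKM (-2.95 ± 0.35 SE, adjusted p = 0.00297). Its difference at 0 h and that at 1 h lay 1.00 apart, the widest gap among the 30 genes, whose median gap was 0.15. Further falls were in the laminin receptor Bcam (-2.65), S100a7a (-2.53), the pantetheinase Vnn1 (-2.34), sciellin, Scel (-2.34), the C1 inhibitor Serping1 (-2.33), Tmem37 (-2.30), P-selectin, Selp (-2.28), the retinoic acid synthase Aldh1a2 (-2.27), the uroplakin Upk3b (-2.24), and mesothelin, Msln (-2.22). The ubiquitin ligase Rnf144b (-2.52) was listed at 0.00169, 0.567 and 0.782 FPKM in sim against 7.22 and 6.25 FPKM in null, and its near-0 value in a single library makes its size uncertain. All 30 genes also passed with the same direction against the null libraries of set A, a comparison that reuses the sim libraries. All 30 passed with the same direction in rvWT against null of set B as well.

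Genes of the amino-acid stress response moved together. ATF4 is a transcription factor whose translation increases when amino acids run short or the integrated stress response is active, and its targets import and make amino acids, charge transfer RNAs and carry feedback regulators. Of the 35 measured targets of a list of 36, 30 were higher in sim and 0 lower, with 5 not passing and a median difference of 0.60, beside 13.9% higher and a median of -0.02 over all genes tested. All 30 that passed were higher in sim at 0 h, without TGFβ. The 0 h libraries are part of the fit that called them, so this is no separate test. Without the null 1 h library the count of higher targets was 19.

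Trib3, the pseudokinase that feeds back on ATF4, was at 68.7, 88.7 and 69.4 FPKM in sim and 10.6 and 12.5 FPKM in null (2.67 ± 0.06 SE, adjusted p = 7.30e-05). Ddit3, the transcription factor CHOP, was at 108, 87.4 and 102 against 35.9 and 24.6 FPKM (1.68 ± 0.07 SE, adjusted p = 1.40e-04). Aldh1l2, a mitochondrial folate enzyme, was at 67.0, 63.7 and 59.5 against 18.9 and 17.5 FPKM (a 3.49-fold ratio of means, adjusted p = 7.30e-05). In these genes the lowest sim library lay above the higher null library. Among enzymes of amino-acid synthesis, asparagine synthetase, Asns, was at 159, 167 and 164 against 86.9 and 85.9 FPKM (0.91 ± 0.05 SE, adjusted p = 2.88e-04), and Cth of the transsulfuration pathway, Gpt2 and Psph differed by 1.52, 0.88 and 0.59. The mitochondrial one-carbon enzymes Shmt2 (1.01) and Mthfd2 (0.60) were higher as well. Among transporters, Slc7a5, a chain of the carrier for large neutral amino acids, was at 110.4, 127 and 148 against 55.7 and 62.9 FPKM (0.99 ± 0.05 SE, adjusted p = 2.08e-04), with its partner chain Slc3a2 at 0.68, Slc1a4 at 1.26 and the cystine carrier Slc7a11 at 0.37. The transfer RNA synthetases Cars (0.38), Gars (0.39), Sars (0.47) and Nars (0.22) rose by less. Atf4 itself was at 346, 370.3 and 481 against 265 and 257 FPKM (0.45 ± 0.06 SE, adjusted p = 0.00379). The serine synthesis enzymes Phgdh (-0.07, adjusted p = 0.333) and Psat1 (-0.08, adjusted p = 0.248) did not pass, nor did Wars (0.28), Cebpb (-0.12) and Eif4ebp1 (0.07).

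The promoters of 28 of the 35 targets were found in RefSeq's windows of 250 bases before to 50 bases after a start site (GRCm38.p6). A motif of the letters TGATGNAA, close to the CARE element that ATF4-containing dimers bind, was searched on both strands and was found in 11 of these 28 genes. It was present in 4.51% of all 27025 genes with a window (3.97% of all 32851 windows). The stretches of 150 bases before the start site of 2 of the 11 are shown, since both genes were higher in every sim library; capitals mark the motif, which lies on the reverse strand in Pck2, and each stretch is written 5′ to 3′ on the gene's strand. That of Asns is chr6:7693210-7693359 (minus strand) and that of Pck2, a mitochondrial PEP carboxykinase with a difference of 0.84, is chr14:55540116-55540265 (plus strand).
Asns: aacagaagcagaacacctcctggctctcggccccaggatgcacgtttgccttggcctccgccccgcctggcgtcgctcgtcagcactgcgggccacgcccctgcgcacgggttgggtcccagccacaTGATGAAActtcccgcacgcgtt
Pck2: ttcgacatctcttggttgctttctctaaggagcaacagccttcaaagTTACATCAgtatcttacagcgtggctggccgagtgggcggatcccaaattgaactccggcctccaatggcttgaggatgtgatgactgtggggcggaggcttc

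**Figure D2:**
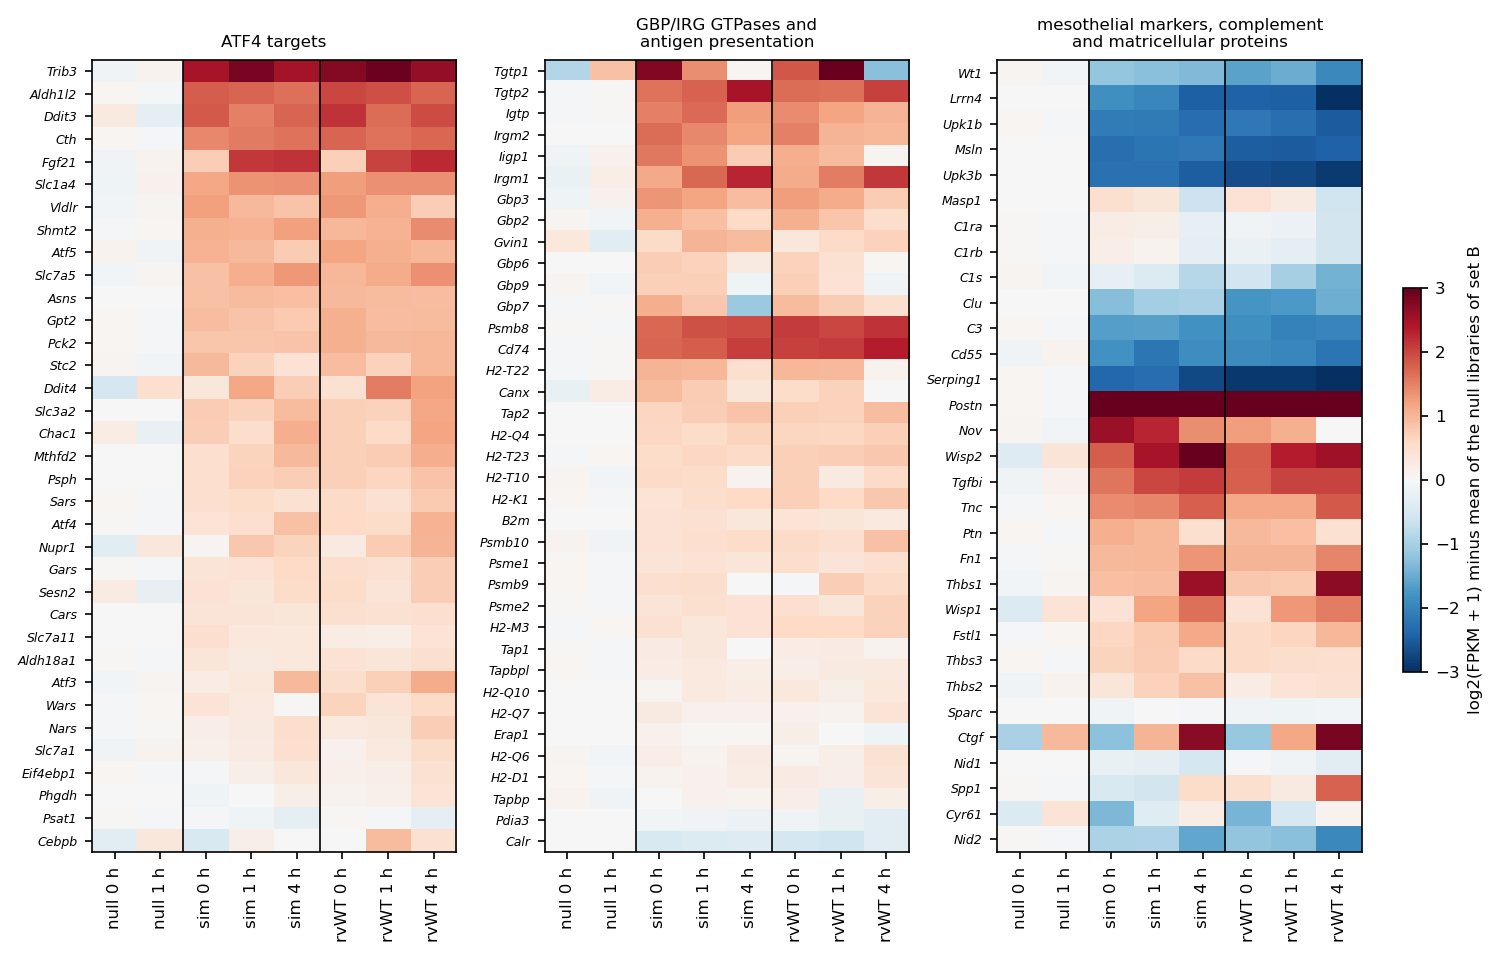
Level of each tested gene in each library of set B as a colour, log2(FPKM + 1) minus the mean of the 2 null libraries (scale from -3 to 3), for ATF4 targets (left), guanylate-binding and immunity-related GTPases with antigen presentation genes (middle), and mesothelial, complement and matricellular genes (right). Trib3 (2.67 in sim against null) heads the left block, and the 5 mesothelial markers at the top of the right block are lower in all sim libraries, with Msln at -2.22.

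Interferon-induced genes rose together in sim, while their receptors and signalling genes passed in both directions. Interferons act through JAK kinases and STAT factors on a set of genes that block viruses and show antigens to T cells. Among effectors, 19 of the 28 measured of 39 listed were higher and 0 lower (median 0.75). Among guanylate-binding proteins (GBPs) and immunity-related GTPases (IRGs), which attack membranes around intracellular microbes, 9 of 12 measured of 16 listed were higher and 0 lower (median 1.35). For viral RNA and DNA sensors the counts were 10 higher and 3 lower of 19 tested. Among receptors, kinases, STATs and IRFs they were 3 higher and 4 lower of 16, and 8 higher and 1 lower of 16 against null of set A. For these the counts were 3 and 1 without the null 1 h library, 2 and 2 without the null 0 h library and 3 and 2 without the sim 0 h library. Without the null 0 h library 6 sensors were higher, and 0 were lower without either null library, the sim 0 h library or either of the rvWT 0 h and 1 h libraries, or with median-ratio scaling. Over all genes tested, 13.9% were higher and 20.8% lower.

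Isg15, a ubiquitin-like modifier, was at 67.5, 80.4 and 61.5 FPKM in sim and 14.7 and 20.9 FPKM in null (1.97 ± 0.15 SE, adjusted p = 7.86e-04). Ifit1, which binds foreign RNA ends, was at 37.6, 29.5 and 27.5 against 8.07 and 9.85 FPKM (1.76 ± 0.19 SE, adjusted p = 0.00203). Xaf1 was at 52.9, 53.8 and 42.6 against 17.5 and 20.1 FPKM (1.48 ± 0.09 SE, adjusted p = 3.72e-04). In each the lowest sim library lay above the higher null library, and the sim level at 4 h was the lowest of the 3. Irgm1, an IRG that guards the cell's own membranes, went the other way with time, at 57.3, 86.2 and 129 FPKM in sim and 22.2 and 29.6 FPKM in null (1.43 ± 0.06 SE, adjusted p = 1.73e-04). Gbp2 was at 22.6, 20.1 and 16.2 against 10.9 and 9.77 FPKM (0.99 ± 0.05 SE, adjusted p = 2.65e-04). Tgtp2 (1.77), Igtp (1.59), Irgm2 (1.54) and Gbp3 (1.27) were higher too. Tgtp1 (2.36, adjusted p = 0.0734) did not pass, and as a near-identical copy of Tgtp2 it may share reads with it. Of the sensors, Dhx58 (1.26), Ifi204 (0.89), Trim25 (0.78) and Ddx58, which encodes RIG-I (0.57), were higher, and Mavs (-0.34), Tmem173, which encodes STING (-0.27), and Tlr4 (-0.40) were lower. Of the signalling genes, the inhibitor Usp18 (2.01), Stat2 (0.74) and Irf1 (0.39) were higher, while the receptor chains Ifngr2 (-0.39) and Ifnar2 (-0.30) were lower.

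Antigen presentation genes rose by less, with a median of 0.39. Of 25 tested, 14 were higher and 1 lower, beside 13.9% and 20.8% over all genes tested. The count of higher genes was 9 without either null library. The immunoproteasome subunit Psmb8 was at 22.5, 25.5 and 26.3 FPKM in sim and 6.18 and 5.94 FPKM in null (1.82 ± 0.07 SE, adjusted p = 1.60e-04). Cd74, the invariant chain of class II presentation, was at 5.83, 6.17 and 7.55 against 0.988 and 1.08 FPKM (1.78 ± 0.06 SE, adjusted p = 1.06e-04). The peptide transporter subunit Tap2 was at 10.5, 11.4 and 12.4 against 6.44 and 6.37 FPKM (0.68 ± 0.06 SE, adjusted p = 0.00108), and the light chain B2m at 607, 619 and 578 against 453 and 453 FPKM (0.44 ± 0.05 SE, adjusted p = 0.00224). All 4 were higher in every sim library than in either null library. The lower gene was the chaperone Calr (-0.46), and the class I heavy chain H2-D1 (0.11, adjusted p = 0.153) did not pass. Reads of class I heavy chains, which are near copies of each other, may be split between them.

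A motif of GAAA, any 2 bases and again GAAA, the core of the element bound by interferon-activated factors, was searched on both strands in the same RefSeq windows. It occurred in 3.99% of all 27025 genes with a window (3.44% of all 32851 windows). It was found in 8 of the 8 GBP and IRG genes with a window, in 11 of 23 effectors, in 5 of 21 antigen presentation genes and in 1 of 28 ATF4 targets. The ATF4-type motif was found in 2 of the 23 effectors, in 1 of the 8 GBP and IRG genes and in 0 of the 21 antigen presentation genes. The stretches of 150 bases before the start site of 3 genes that were higher in every sim library, picked with their values known, show how the motif lies near the start; capitals mark it, with overlapping matches run together in Irgm1 and Isg15 and a match on the reverse strand in Gbp2. They are chr11:48871421-48871570 (minus strand), chr4:156200819-156200968 (minus strand) and chr3:142620513-142620662 (plus strand) in GRCm38.p6.
Irgm1: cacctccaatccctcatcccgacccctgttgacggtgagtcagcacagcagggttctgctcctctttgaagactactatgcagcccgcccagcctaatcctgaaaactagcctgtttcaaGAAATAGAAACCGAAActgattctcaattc
Isg15: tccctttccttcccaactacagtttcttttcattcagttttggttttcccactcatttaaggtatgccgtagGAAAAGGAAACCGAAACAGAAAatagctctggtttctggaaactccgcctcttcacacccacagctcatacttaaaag
Gbp2: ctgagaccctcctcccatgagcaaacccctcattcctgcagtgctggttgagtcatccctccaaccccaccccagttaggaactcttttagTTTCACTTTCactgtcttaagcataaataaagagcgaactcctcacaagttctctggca

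Mesothelial markers fell. The mesothelium is the sheet of cells that lines the body cavities, and its cells make mesothelin, uroplakins and the transcription factor Wt1. All 5 markers measured were lower in sim (median -2.08), beside 20.8% of all genes. Msln, mesothelin, was at 23.3, 24.5 and 25.2 FPKM in sim and 115 and 116 FPKM in null (-2.22 ± 0.05 SE, adjusted p = 7.18e-05). Upk3b was at 103, 102 and 87.4 against 489 and 484 FPKM (-2.24 ± 0.04 SE, adjusted p = 7.12e-05), and Wt1 at 6.79, 6.30 and 6.05 against 17.5 and 15.6 FPKM (-1.17 ± 0.10 SE, adjusted p = 0.00119). The 5 markers summed to 153 to 179 FPKM in the sim libraries, 797 to 812 FPKM in null of set B, 359 to 596 FPKM in null of set A and 117 to 138 FPKM in rvWT. The sums of the 2 sets of null libraries did not overlap each other, and both lay above every sim library. Fewer cells of a type and less RNA per cell cannot be told apart in these bulk samples. These markers separate the same libraries as every gene group described here, and their part in the other differences was not tested.

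Fibroblast identity genes rose in the same libraries. Of 10 markers tested, 8 were higher and 1 lower (median 0.60), beside 13.9% and 20.8% over all genes tested. Prrx1, a transcription factor of limb and body-wall mesenchyme, was at 51.2, 46.1 and 36.5 FPKM in sim and 18.5 and 15.6 FPKM in null (1.48 ± 0.06 SE, adjusted p = 1.87e-04), with no overlap. Pdgfrb (0.76) and Thy1 (0.69) were higher, S100a4 was lower (-0.45), and Twist1 (0.22, adjusted p = 0.0856) did not pass.

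Matrix genes moved in both directions, group by group. Of 20 collagen genes tested 9 were higher and 3 lower (median 0.09), beside 13.9% and 20.8% over all genes tested. The fibrillar chain Col1a2 was at 493, 502 and 525 FPKM in sim and 162 and 163 FPKM in null (1.61 ± 0.05 SE, adjusted p = 8.36e-05), while its partner chain Col1a1 was at 1792, 1938 and 2258 against 1040.3 and 1127 FPKM (0.77 ± 0.06 SE, adjusted p = 7.50e-04). Col3a1 (0.51), Col5a1 (0.60) and Col5a2 (0.58) were higher, Col8a1 (-0.87), Col4a6 (-0.75) and Col18a1 (-0.51) lower, and the basement-membrane chains Col4a1 (0.03, adjusted p = 0.727) and Col4a2 (0.01, adjusted p = 0.859) did not pass. Among collagen-modifying enzymes 6 were higher and 4 lower of 23: the cross-linking oxidase Lox was at 407, 371 and 510.3 against 194 and 244 FPKM (0.87 ± 0.12 SE, adjusted p = 0.00465), and the propeptide-cleaving system was lower in Bmp1 (-0.63), Pcolce2 (-1.13) and Pcolce (-0.26). Leaving out either null library left 2 of these enzymes higher and 1 lower, leaving out the sim 0 h library 3 higher and 2 lower, and leaving out the rvWT 0 h library 4 higher and 2 lower.

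Proteoglycans and matricellular proteins were mostly higher. Of 15 proteoglycans tested 8 were higher and 2 lower (median 0.58), beside 13.9% and 20.8% over all genes tested. Biglycan, Bgn, was at 862, 884 and 1017 FPKM in sim and 293 and 309.8 FPKM in null (1.52 ± 0.05 SE, adjusted p = 1.06e-04), a 3.06-fold ratio of means with no overlap. Versican, Vcan, was higher (1.14), and the heparan sulfate carriers Hspg2 (-0.52) and Sdc4 (-0.63) were lower. Of 18 matricellular and adhesive matrix proteins 12 were higher and 4 lower (median 0.77; 2 lower without either null library). Tgfbi was at 73.8, 97.6 and 104 against 21.3 and 26.0 FPKM (1.84 ± 0.07 SE, adjusted p = 1.38e-04), and Fn1, fibronectin, at 649, 651 and 821 against 319 and 337 FPKM (0.97 ± 0.06 SE, adjusted p = 3.52e-04). Ptn, pleiotrophin (1.03), Tnc, tenascin C (1.38), and Thbs1, thrombospondin 1 (0.87), were higher, while Nid2 (-0.92), Spp1 (-0.55), Nid1 (-0.26) and the CCN protein Cyr61 (-0.85) were lower. Among elastic fibre genes, fibrillin 1, Fbn1, was at 22.9, 21.4 and 30.2 against 5.27 and 6.20 FPKM (1.76 ± 0.09 SE, adjusted p = 2.34e-04) and Efemp2, fibulin 4, at 169, 183 and 185 against 295 and 303 FPKM (-0.79 ± 0.07 SE, adjusted p = 0.00124), with 7 of 14 higher and 3 lower.

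**Figure D3:**
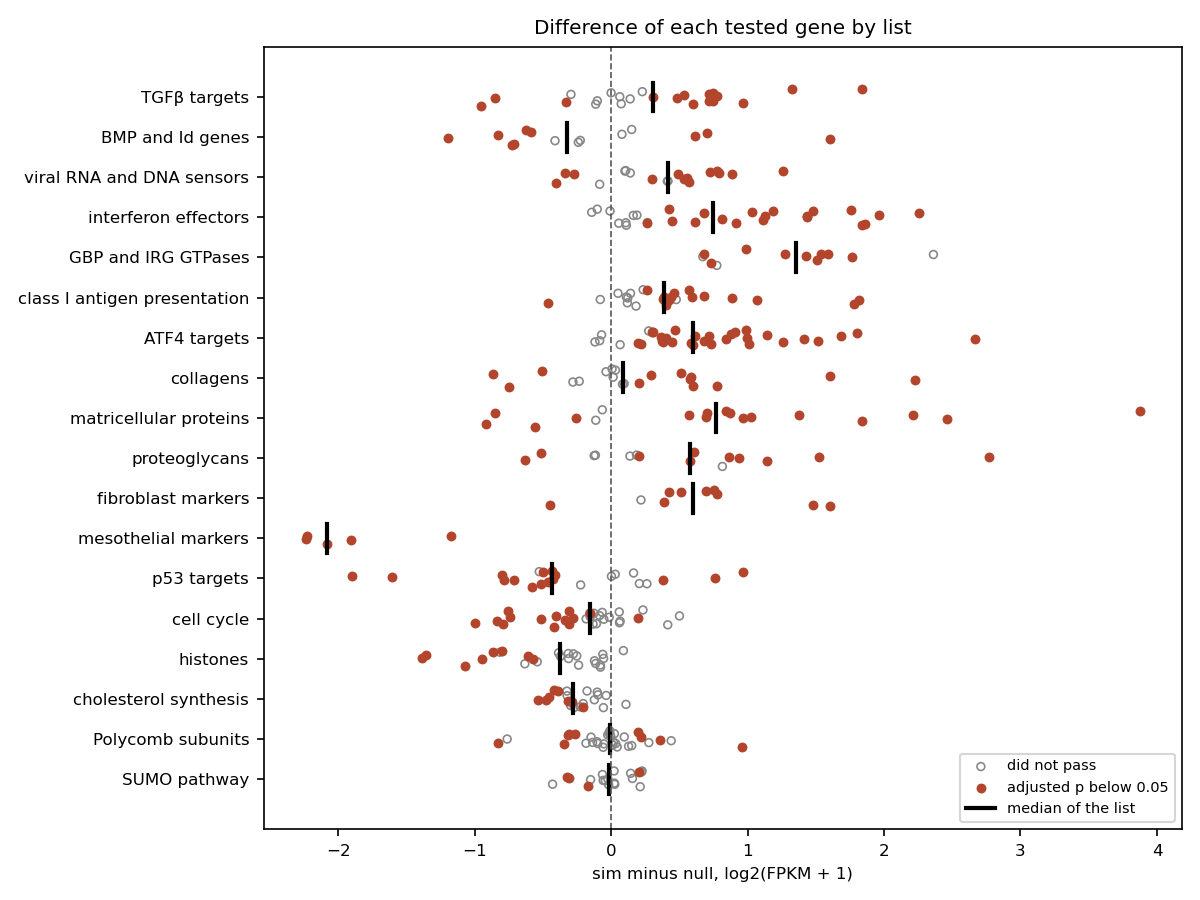
Difference between sim and null for every tested gene of 18 gene lists, on the log2(FPKM + 1) scale (horizontal axis), filled where the adjusted p was below 0.05, with the median of each list as a black bar. The lists of mesothelial markers (median -2.08) and of GBP and IRG GTPases (median 1.35) lie farthest from 0, and those of Polycomb subunits (-0.01) and the SUMO pathway (-0.02) are centred near it.

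Proteases and adhesion proteins moved in both directions, beside 13.9% higher and 20.8% lower over all genes tested. Of 23 proteases and inhibitors, 11 were higher and 7 lower (3 lower without the null 0 h library): the metalloproteases Mmp3 (-3.63), Mmp13 (-1.93) and Mmp2 (-1.11) were lower, and Mmp11 (1.02), Mmp16 (1.13), Adam12 (0.91) and Adamts1 (1.41) higher. The serpin Serpine2, protease nexin 1, was at 57.8, 55.8 and 46.9 FPKM in sim and 13.7 and 13.1 FPKM in null (2.02 ± 0.05 SE, adjusted p = 7.30e-05), and Timp3 at 915, 970.3 and 1189 against 395 and 479 FPKM (1.10 ± 0.06 SE, adjusted p = 3.76e-04). Of 24 adhesion genes 7 were higher and 10 lower. The collagen-binding integrin chain Itga11 was at 22.9, 24.1 and 38.3 against 5.35 and 5.36 FPKM (1.94 ± 0.05 SE, adjusted p = 7.30e-05), and the laminin-binding chain Itga3 at 39.2, 44.3 and 31.1 against 128 and 133 FPKM (-1.63 ± 0.05 SE, adjusted p = 1.06e-04). Itga6 (-0.86) and Itga1 (-1.41) were lower with Itga3, and the mesenchymal cadherin Cdh11 (1.60), Ncam1 (1.63) and Alcam (1.45) were higher. The desmosomal genes Dsp (-1.59), Jup (-0.64) and Pkp2 (-0.81) were lower, in contrast to Cdsn. Of 21 genes of a chemokine and cytokine list, which also holds the peptide hormone gene Cck, 9 were higher and 2 lower. The 2 lower genes were Cck (-4.30) and Tnfsf9 (-1.35). Among the higher ones were Cxcl12, at 362, 318 and 266 against 84.7 and 85.7 FPKM (2.04 ± 0.10 SE, adjusted p = 2.61e-04), and Cx3cl1 (1.28).

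In 3 lists of growth-control genes more members passed as lower in sim than as higher. The same order held over all genes tested, with 20.8% lower and 13.9% higher. Of 22 p53 targets 3 were higher and 12 lower (median -0.43), and 7 were lower without the null 0 h library. Cdkn1a, the cyclin-dependent kinase inhibitor p21, was at 29.8, 44.1 and 38.8 FPKM in sim and 107 and 115 FPKM in null (-1.61 ± 0.11 SE, adjusted p = 5.50e-04), and Perp at 7.50, 7.20 and 5.89 against 29.4 and 31.6 FPKM (-1.90 ± 0.06 SE, adjusted p = 1.12e-04). Mdm2 (-0.51) and Ccng1 (-0.78) were lower, Plk2 (0.97) was higher and Trp53 itself did not pass (0.03, adjusted p = 0.755). Bax was lower (-0.58) against null of set B and had a difference of 0.10 against null of set A. Of 31 cell-cycle genes 1 was higher and 13 lower (median -0.15), with the cyclins Ccnd1 at 95.9, 97.5 and 92.5 against 172 and 171 FPKM (-0.84 ± 0.05 SE, adjusted p = 4.34e-04) and Ccne1 at -0.79, and with the proliferation marker Mki67 (-0.16, adjusted p = 0.141) not passing. The count of lower cell-cycle genes was 8 without the null 0 h library and 7 without the null 1 h library. Of 27 immediate-early and feedback genes 5 were higher and 10 lower, among them the MAP kinase phosphatase Dusp1, at 9.79, 9.07 and 7.74 against 33.9 and 33.6 FPKM (-1.75 ± 0.06 SE, adjusted p = 1.15e-04), and Fos (-1.72). The count of higher ones was 1 without the null 1 h library, 2 without the sim 0 h or rvWT 1 h library and 3 without the rvWT 0 h library.

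No measured gene listed as a partner of the ligase passed at the RNA level in the fit of the 8 libraries of set B, beside 34.7% of all genes. Of the 6, Smad7 passed as lower in some alternatives. The 6 measured of 8 listed partners and substrates were Smad7 (-0.29, adjusted p = 0.0592; -0.45, adjusted p = 0.0402 without the null 1 h library and -0.29, adjusted p = 0.0378 against null of set A), Ski (-0.10, adjusted p = 0.432), Pml (-0.14), Rnf4 (-0.04), Axin1 (-0.04) and Xpc (-0.02). Arkadia acts on the proteins of Smad7 and Ski, which RNA levels do not show. For the lists that follow, the shares over all genes tested were 13.9% higher and 20.8% lower. Of 19 SUMO pathway genes 1 was higher and 3 lower, and 0 passed in either direction without the sim 0 h, the null 0 h or the null 1 h library. Of 32 Polycomb subunits 4 were higher and 5 lower (median -0.01). Without the sim 0 h, the null 0 h or the null 1 h library 1 was higher and 1 lower, and the higher count was 1 without the rvWT 1 h library and 2 without the rvWT 0 h or the sim 1 h library. Rybp, a subunit of variant Polycomb complexes, stood out at 13.7, 23.5 and 16.6 FPKM in sim and 6.86 and 11.8 FPKM in null (0.96 ± 0.07 SE, adjusted p = 7.06e-04). Ezh2, the methyltransferase of Polycomb repressive complex PRC2, did not pass (0.04, adjusted p = 0.640). Among Hox genes, classical Polycomb targets that set position along the body, 3 of 19 were higher and 5 lower. The higher count was 1 without the null 0 h, null 1 h, sim 0 h or rvWT 1 h library, and the lower count 3 without the null 0 h, sim 0 h or sim 1 h library. In the fit of the 8 libraries of set B Hoxa11 (-1.52), Hoxa10 (-1.25) and Hoxd8 (-1.53) were lower and Hoxb9 (0.63) higher. Imprinted growth genes were split, 4 higher and 4 lower of 13 (2 lower without the null 1 h, sim 0 h, rvWT 0 h or rvWT 1 h library): Mest was at 23.1, 27.6 and 8.56 against 90.3 and 96.6 FPKM (-1.77 ± 0.21 SE, adjusted p = 0.00288) and Peg3 at -1.46, while Grb10 (1.13) and Meg3 (0.84) were higher.

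Among other lists, cholesterol synthesis had 0 higher and 8 lower of 22 (median -0.28), which became 0 lower without the null 0 h library, 2 lower without the null 1 h library and 4 lower without the sim 0 h or rvWT 1 h library. Histone genes had 0 higher and 8 lower of 25, 3 lower without the null 0 h library, 2 lower without the null 1 h library, and 2 higher and 1 lower of 18 against null of set A. In each list here, the counts stand beside 13.9% higher and 20.8% lower over all genes tested. Glycolysis and hypoxia genes had 3 higher and 7 lower of 22, with the carbonic anhydrase Car9 at -1.92 and the glucose transporter Slc2a1 at -0.82. Their higher count was 0 without the sim 0 h, sim 1 h or rvWT 0 h library and 1 without the sim 4 h, rvWT 1 h, rvWT 4 h or null 1 h library, and their lower count was 4 without either null library.

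Direct targets of TGFβ were more often higher than lower in sim. Of 23 targets tested, leaving out Rnf111, 12 were higher and 3 lower (median 0.31), beside 13.9% and 20.8% over all genes. Pmepa1, a feedback inhibitor of SMAD signalling, was at 16.6, 49.5 and 91.3 FPKM in sim at 0, 1 and 4 h and at 9.86 and 28.2 FPKM in null at 0 and 1 h (0.75 ± 0.10 SE, adjusted p = 0.00411), and Snai1, a repressor of epithelial genes, at 21.3, 179.9 and 82.3 against 12.6 and 106 FPKM (0.72 ± 0.06 SE, adjusted p = 0.00117). Both rose after TGFβ in both lines, so that the ranges of sim and null overlapped across times, and sim was higher at 0 h and at 1 h. Ctgf (-0.11, adjusted p = 0.367) and Junb (0.14, adjusted p = 0.472) did not pass, and Cyr61 (-0.85), Tagln (-0.95) and Bhlhe40 (-0.33) were lower.

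Among ligands, receptors and SMADs 3 of 24 genes were higher and 6 lower, beside 13.9% and 20.8% over all genes tested. Without the null 0 h library 1 was higher and 2 lower, without the null 1 h library 0 higher and 4 lower, and without the sim 0 h library 1 higher and 4 lower. The receptors Acvr1 (0.45) and Acvr2a (0.81) were higher, and the coreceptor Tgfbr3 (-0.65), the activin chain Inhbb (-0.78), Smad1 (-0.48) and Smad3 (-0.36) lower. The TGFβ receptor chains Tgfbr1 (0.23, adjusted p = 0.208) and Tgfbr2 (-0.08, adjusted p = 0.365) did not pass. On the BMP side, 3 of 14 genes were higher and 6 lower (median -0.33), and 3 were lower without the null 0 h library. The BMP antagonist Grem1 was at 144, 117 and 146 FPKM in sim and 41.5 and 44.9 FPKM in null (1.60 ± 0.12 SE, adjusted p = 7.69e-04) and Bmp4 was higher (0.62), while the antagonists Nog (-0.83), Fst (-0.73) and Chrd (-0.58), the ligand Bmp6 (-1.19) and the BMP target Id1 (-0.71) were lower.

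The size of the TGFβ response itself was compared between sim and null with a fit over the 3 sim libraries and the 6 null libraries of both sets, which leaves 1 residual degree of freedom. At 1 h 15 of 10997 genes passed (0.136%) and at 4 h 11 (0.1%), against 1275 and 2334 at an unadjusted p below 0.05. All 15 calls at 1 h and 10 of the 11 at 4 h were small RNAs or genes that jump between under 0.1 and over 5 FPKM. The exception was Prmt2, an arginine methyltransferase, which dropped to 1.79 FPKM in the sim 4 h library from 12.4 and 17.1 FPKM at 0 and 1 h. None of the 24 TGFβ targets passed limma's test at either time (5 at an unadjusted p below 0.05 at 1 h, 10 at 4 h). Pmepa1 rose by 1.52 at 1 h in sim, by 1.42 in null of set B and by 1.49 in null of set A. At 4 h it had risen by 2.39 in sim and by 2.09 in null of set A (difference of responses 0.31, adjusted p = 0.202). The higher level of Pmepa1 in sim was already present without TGFβ. Ctgf rose by 3.94 at 4 h in sim and by 2.89 in null of set A (difference 1.01, adjusted p = 0.166), and Myc by 1.96 and 0.71 (difference 1.26, adjusted p = 0.147). Id1 rose by 2.11 at 1 h in sim and by 1.29 and 1.23 in the null sets (difference 0.85, adjusted p = 0.178).

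**Figure D4:**
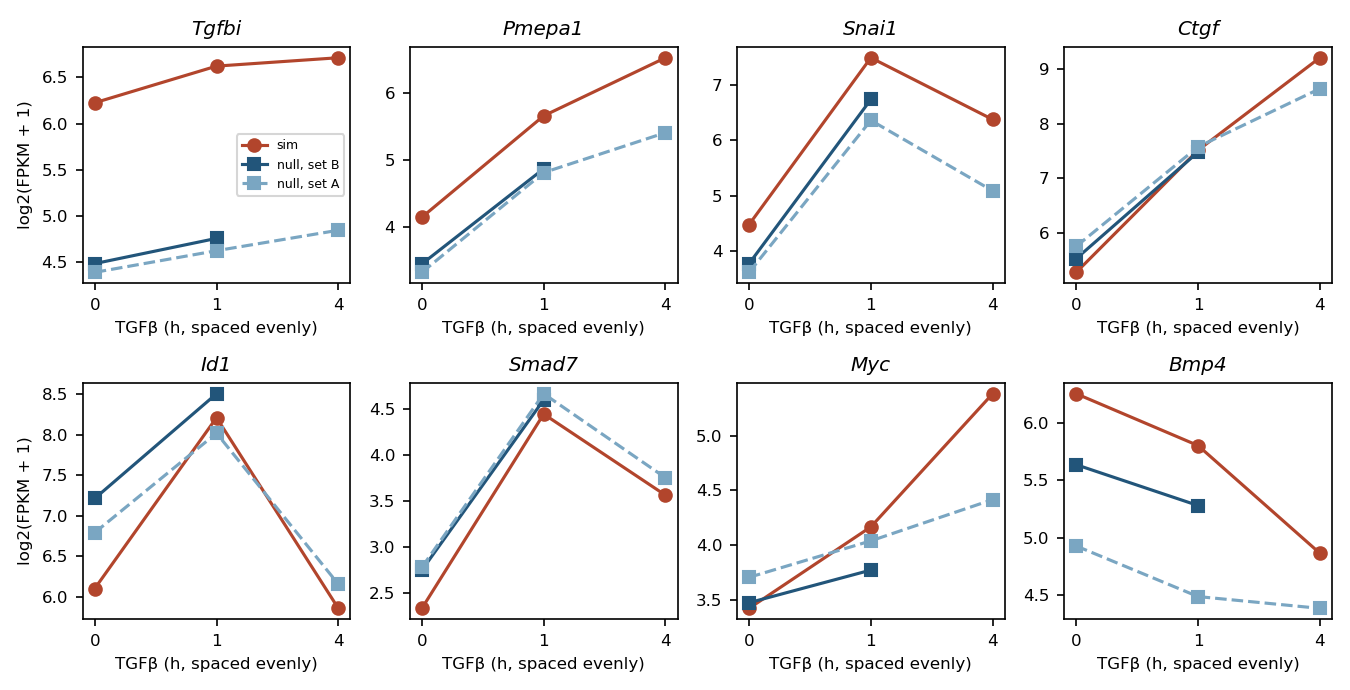
Level of 8 TGFβ and BMP genes, as log2(FPKM + 1), against hours of TGFβ (times spaced evenly) in sim, in null of set B (0 and 1 h) and in null of set A (0, 1 and 4 h), 1 library per point. Pmepa1 climbs in each series, with rises at 1 h of 1.52 in sim and 1.42 in null of set B, while Myc climbs by 1.96 in sim and 0.71 in null of set A at 4 h.

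The rvWT libraries show what null cells look like with wild-type Arkadia from the same type of virus. Against null, rvWT differed in 4230 of 10958 genes (38.6%), and 3306 of the 3807 sim calls passed there with the same direction. There 31 of 35 ATF4 targets, 18 of 28 interferon effectors and 9 of 12 GBP and IRG genes were higher. The 38.6% over all genes counts both directions together, so it is no like share for these counts by direction. Lower were 0, 2 and 0 of these, and all 5 mesothelial markers. Both comparisons share the null libraries, which favours such agreement, so rvWT was also compared with sim directly. Sim and rvWT differed in 54 of 10958 genes (0.493%), 39 higher in sim (0.356%) and 15 lower (0.137%), with 1818 at an unadjusted p below 0.05. The count ranged from 1 to 10 when a single library was left out, so the number of calls depended on each of the 8 libraries. Of the lists described above, 2 of 5 mesothelial markers, 2 of 20 collagens, 2 of 18 matricellular genes and 1 of 15 proteoglycans were higher in sim than in rvWT. Lower were 1 collagen, 1 matricellular gene, 1 adhesion gene and 1 gene of the chemokine and cytokine list, the receptor gene Il1rl1. The median of sim minus rvWT was -0.12 over the 35 ATF4 targets (range -0.57 to 0.10) and 0.22 over the 28 interferon effectors (range -0.08 to 0.51). As single examples picked with their values known, Trib3 was at 83.8, 95.1 and 77.2 FPKM in rvWT (sim minus rvWT -0.18 ± 0.05 SE, adjusted p = 0.204), Isg15 at 53.9, 48.6 and 51.4 FPKM (0.43 ± 0.13 SE, adjusted p = 0.222), Irgm1 at 56.2, 76.1 and 115 FPKM (0.12 ± 0.05 SE, adjusted p = 0.311) and Msln at 19.9, 19.6 and 20.8 FPKM (0.26 ± 0.04 SE, adjusted p = 0.0785). None of these 4 differences passed, which does not show that the lines are alike, and the sim and rvWT libraries did not overlap in Isg15 and Msln.

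Several of the genes that differed most between sim and rvWT encode secreted proteins. Nov, a CCN protein, was at 157, 128 and 68.8 FPKM in sim, 62.1, 54.2 and 25.0 FPKM in rvWT and 27.1 and 23.8 FPKM in null (sim minus rvWT 1.33 ± 0.05 SE, adjusted p = 0.00460). Postn was at 286, 258 and 307 FPKM in rvWT, below its level in every sim library (0.64 ± 0.04 SE, adjusted p = 0.0188). Cdsn was at 101, 102 and 88.6 FPKM in rvWT, above every sim library (-0.99 ± 0.06 SE, adjusted p = 0.0131), and Rnf111 had the same order (-0.90 ± 0.05 SE, adjusted p = 0.0167). The 2 lines thus differed in the level of Rnf111 as well as in the motif. In this comparison the motif, that level, the infection and the culture cannot be told apart. Igfbp3, which binds insulin-like growth factors, was at 148, 141 and 125 FPKM in sim and 80.6, 69.9 and 54.1 FPKM in rvWT (1.02 ± 0.07 SE, adjusted p = 0.0188). It was at 374 and 333 FPKM in null of set B, so that sim lay between the other lines of that set. In null of set A it was at 93.2, 79.9 and 96.8 FPKM at 0, 1 and 4 h, below every sim library. Sim minus null was -1.24 with set B and 0.61 with set A (limma, adjusted p = 0.00876 with set A). The Wnt antagonist Sfrp1 was at 133, 130.0 and 93.8 FPKM in sim and at 77.0, 75.3 and 47.1 FPKM in rvWT (0.85 ± 0.05 SE, adjusted p = 0.0184). It was at 144 and 139 FPKM in null of set B, with no difference from sim that passed (-0.08, adjusted p = 0.390). In null of set A it was at 63.6, 57.3 and 68.7 FPKM at 0, 1 and 4 h. Against those libraries Sfrp1 passed limma's test as higher in sim (0.89, adjusted p = 0.0110). Igf2 (0.95), Tnn (0.91), Car2 (0.85) and Lum (0.80) were higher in sim. Lower in sim were Spp1, osteopontin (-0.98), Igfbp6 (-0.83), the interleukin 33 receptor Il1rl1 (-0.81) and the transfer RNA methyltransferase Trmt1 (-0.58). The proliferins Prl2c2 (-1.60) and Prl2c5 (-1.49) were lower as well, and as near-identical copies they may share reads. The mesothelial markers Upk3b (0.44) and Lrrn4 (0.54) were higher in sim than in rvWT, where Upk3b was at 76.5, 73.2 and 65.6 FPKM.

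**Figure D5:**
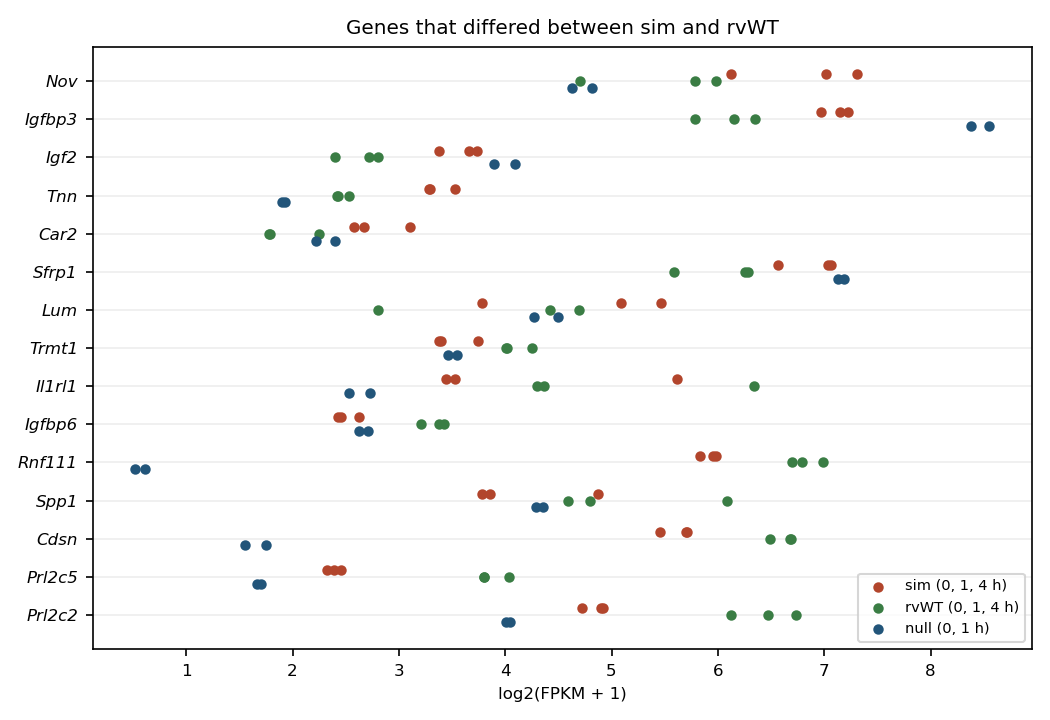
Level, as log2(FPKM + 1), of 7 genes with the largest rise and 8 with the largest fall in sim against rvWT, 1 point per library of sim and rvWT (0, 1 and 4 h) and null (0 and 1 h). Nov is highest in sim, and Cdsn and Rnf111 are highest in rvWT (sim minus rvWT -0.99 and -0.90). Igfbp3 is highest in the null libraries of set B, the only null libraries shown, with sim in the middle.

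The difference of sim from null was set beside that of WT from null in set A, which shares no library with it. Between WT and null 67.5% of genes passed, 37.4% higher and 30.1% lower in WT. Of 10662 genes tested in both comparisons, 3687 passed for sim and 7175 for WT, and 2697 passed in both (73.1% of the sim calls and 37.6% of the WT calls). The direction was the same for 1638 of the 2697 (60.7%), 593 higher in both and 1045 lower in both. It was opposite in 510 genes higher in sim and lower in WT and in 549 of the reverse kind. Pmepa1 (1.33 in WT minus null), Fbn1 (2.34) and Tnfrsf11b (3.69) were higher than null in both, and Cck (-5.19), Mmp3 (-2.87) and Serping1 (-2.43) lower in both. ATF4 targets were lower in WT than in null in 30 of 34 cases and interferon effectors in 16 of 22, against their direction in sim. Postn (-5.34), Trib3 (-1.09) and Cdsn (-1.36) were lower in WT than in null as well, and Bcam (1.05) and C3 (1.88) higher, each opposite to sim.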

How the data were processed

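RNA of mouse embryo fibroblasts was poly(A)-selected and sequenced from stranded libraries, per the labels' protocols. The values are FPKM in a single table deposited by the authors. The submitters' processing notes list Cufflinks 2.2.1, SAMtools, CASAVA 1.8.2 and STAR 2.3.0e, without role or order, and build mm9. Annotation, handling of multiply mapped reads and library scaling are not named in those notes. Low values gave no count of reads, so the depth is unknown and the precision rests on the spread between libraries. Values were taken as log2(FPKM + 1), which understates the change of low genes, in genes that averaged 1 FPKM or more in the libraries fitted. Line differences were fitted over the 8 libraries of set B with limma 3.58.1 (limma-trend, R 4.3.3) with terms for line and time, which leaves 3 residual degrees of freedom. Responses were fitted over the 3 sim and 6 null libraries, and WT minus null over set A, also with limma. Adjusted p-values are Benjamini-Hochberg values over all genes tested, called below 0.05. Scripts were tested on simulated data. The libraries compared, the gene lists and the tests were chosen with earlier results of these data known. Rnf111 was taken out of the list of TGFβ targets, and the complement list, the motifs and the printed promoters were chosen, after values had been seen. Named genes are Rnf111; the 15 largest rises and falls between sim and null, and the 8 between sim and rvWT, among coding genes that passed, reached a mean of 5 FPKM in the higher line and moved the same way in each time-matched pair; the 4 members of lowest p per list; members of the TGFβ target list and the 5 largest calls each way for the responses. Other list members are named to describe their group and were picked with their values known. A few genes that these rules cover are not reported here. Promoters came from RefSeq windows on GRCm38.p6, matched by symbol; no coordinate of the deposited table was used. The alternatives were other pseudocounts (0.1 and 5), filters, scalings, limma settings, model terms and controls, and each library left out in turn.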

Additional observations from a re-analysis of the deposited data

Results flagged for a closer look

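The responses to TGFβ differed between sim and null, by the test of the difference itself, in a few genes, and all but Prmt2 are small RNAs or genes listed near 0 in some libraries and well above it in others. Values are the response in sim minus that in null on the log2(FPKM + 1) scale. At 1 h they were -9.12 for Eif4a1, -7.04 for Snord16a, -6.23 for Mir678, -5.45 for Cbx5, -5.40 for Mir31, 9.93 for Snord69, 7.25 for Snord1c, 7.13 for Mir99b, 5.70 for Snora41 and 5.63 for Snord23. At 4 h they were -9.09 for Eif4a1, -5.69 for Mir31, -5.64 for Snord1c, -5.25 for Mir1902, -2.96 for Prmt2, 19.02 for Snord69, 12.43 for Mir425, 11.93 for Mir3072, 5.15 for Ddx6 and 3.99 for Snora34. Eif4a1, a translation factor that every cell uses, was listed at 550.4 FPKM in sim at 0 h, at 0 in sim at 1 and 4 h, at 0 in both null libraries of set B and at 587, 597 and 581 FPKM in null of set A at 0, 1 and 4 h. Without small RNAs and such genes, an alternative chosen after seeing the data, 0 genes passed at 1 h and 1 at 4 h.

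Sim and rvWT differed from each other, by the direct test, by 1.33 in Nov, 1.02 in Igfbp3, 0.95 in Igf2, 0.91 in Tnn, 0.85 in Car2, 0.85 in Sfrp1 and 0.80 in Lum. The differences were -1.60 in Prl2c2, -1.49 in Prl2c5, -0.99 in Cdsn, -0.98 in Spp1, -0.90 in Rnf111, -0.83 in Igfbp6, -0.81 in Il1rl1 and -0.58 in Trmt1. The part of the motif in them cannot be told apart from that of the Rnf111 level, the infection or the culture.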

How the results depend on the processing

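The count of 3807 genes that differed between sim and null was 1777 without the time term and 555 with an added threshold of 1, and ran from 1581 to 3854 with 1 library left out. The count of 54 between sim and rvWT was 93 with robust variances, 98 with coding genes alone, 89 without small RNAs and genes that drop out, 7 without the time term, 10 with the 0 and 1 h libraries alone and 6 with the added threshold, and ran from 1 to 10 with 1 library left out. The 15 response differences at 1 h became 9 with a minimum of 5 FPKM, 8 with coding genes alone, 0 without small RNAs and genes that drop out and 1 with 16 libraries. The 11 at 4 h became 7 with a pseudocount of 5, 4 with the minimum of 5 FPKM, 7 with quantile normalization, 7 without trend, 23 with robust variances, 1 without small RNAs and genes that drop out and 4 with 16 libraries. For 158 named genes the null libraries of set A were used in place of those of set B. The difference turned, and passed in at least 1 of the 2 fits, for Socs3 (0.17), Bax (0.10), Hist2h2ac (0.18), Hist1h1c (0.12), Tm7sf2 (0.012), Phf1 (0.083), Topors (-0.14) and Tek (0.47). Genes named only for sim against rvWT were not among the 158. Of those, Igfbp3 (0.61), Igf2 (0.74), Sfrp1 (0.89), Prl2c2 (-1.40), Prl2c5 (-0.96), Il1rl1 (-0.88) and Trmt1 (-0.31) turned by the same rule. The cause of these shifts was not tested. The labels give no replicate numbers to use as a block; the time term pairs the libraries of set B by time instead, and the counts without it are given above. For the responses only leaving out null at 16 h kept a residual degree of freedom.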

Other observations

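Complement genes, a list drawn up after their values were seen, were lower in sim in 6 of 9 tested and higher in 2. The shares over all genes tested were 20.8% and 13.9%. C3, the central complement protein, was at 9.14, 9.29 and 7.97 FPKM in sim and 32.0 and 29.4 FPKM in null (-1.66 ± 0.07 SE, adjusted p = 1.92e-04). The regulators Serping1, at 2.98, 3.20 and 2.12 against 20.1 and 18.6 FPKM, and Cd55, at 2.13, 1.44 and 2.03 against 9.18 and 10.8 FPKM, were lower as well, with no overlap between the lines. The proteases Masp1 (0.41) and C1ra (0.19) were higher. Against null of set A the median of the list was -0.24, where it was -1.17 against null of set B.

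The rise of Cdsn was not shared by its measured neighbours on the chromosome, a look taken after its value was known. Of the 4 nearest measured genes on each side, Tcf19 (-0.49) and Ddr1 (-1.05) were lower in sim, and Cchcr1 (0.13), Vars2 (0.11), Gtf2h4 (0.29), H2-Q7 (0.14), H2-Q10 (0.18) and Ier3 (-0.48) did not pass.

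Among the markers of other cell types, single genes passed in both directions. Lpl, lipoprotein lipase, was at 39.6, 34.8 and 22.8 FPKM in sim and 149.7 and 142 FPKM in null (-1.93 ± 0.06 SE, adjusted p = 8.36e-05). Kdr, a VEGF receptor, was at 1.93, 2.63 and 2.26 against 6.42 and 6.98 FPKM (-1.24 ± 0.09 SE, adjusted p = 5.84e-04), while Flt1, another, was at 2.01, 2.06 and 3.41 against 0.884 and 0.979 FPKM (0.64 ± 0.08 SE, adjusted p = 0.00274). Krt14, a keratin of basal epithelium, was at 2.33, 5.31 and 20.5 FPKM in sim and 0.243 and 1.24 FPKM in null (1.42 ± 0.15 SE, adjusted p = 0.00187) and rose with time in sim.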
